A study of Mus musculus with 6 samples.

Results

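Histone genes were followed in mouse primary cortical neurons with less Cugbp1. The members are the genes whose symbol in the platform annotation starts with Hist1h, Hist2h, Hist3h or Hist4h, together with H1f0, H2afx, H2afz, H2afv, H2afy, H3f3a and H3f3b, as far as a probe set belongs to 1 gene alone. The rule names 33 genes, and 32 of them had such a probe set, of 22076 named genes on the array. By symbol alone they count as 26 replication-dependent and 6 replacement histone genes, with testis forms and pseudogenes among the former. H1f0 had no probe set annotated to it alone and was not analysed here. The family was taken up because members were among the largest rises in this same comparison, so its differences between the groups are given as a description.

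The 6 samples were neuron cultures, of which 3 received a lentivirus with a short hairpin RNA (shRNA) against Cugbp1 and 3 a lentivirus with a control shRNA. All 6 came from cortices of C57BL/6 embryos at embryonic day 15, without meninges, and were treated with AraC, an inhibitor of DNA synthesis, on the day after plating. Virus was applied on day 5 for 4 hours, RNA was taken on day 11 after 6 more days, and 100 ng of total RNA was labelled per exon array. The labels name no promoter, no hairpin sequence and no separate platings, animals or litters, so p-values measure the spread between these samples, which may be technical. Titles and sources say Cugbp1 and cortical neurons, but the protocol text for replicates 2 and 3 of either group speaks of a Tdp-43 hairpin, and the design text speaks of motor neurons.

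Celf1, the current name of Cugbp1, averaged 9.44 ± 0.14 in Cugbp1 shRNA cultures and 10.80 ± 0.05 in control cultures (log2, SD, n = 3 each), which is 39.1% of control (limma, adjusted p = 0.0304, and 0.0539 to 0.189 without any 1 array). Tardbp, the gene of Tdp-43, differed by -0.03 (adjusted p = 0.973). Of the pan-neuronal markers, 13 of 14 lay above the 75th percentile of all genes by mean signal, as did 6 of 9 glutamatergic, 8 of 12 astrocyte and 5 of 9 oligodendrocyte lineage markers, but 0 of 7 motor neuron and 0 of 10 microglia markers. Over 19964 genes tested, 261 (1.31%) were called at an adjusted p under 0.05, 67 higher and 194 lower in Cugbp1 shRNA cultures, and the median change was -0.02. Without any 1 of the 6 arrays the calls fell to 0 higher and at most 1 lower.

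Histones H2A, H2B, H3 and H4 form the core around which DNA is wound, and H1 binds the linker DNA between cores. Replication-dependent histone genes lie in clusters, are switched on in S phase, and give mRNAs that end in a stem-loop instead of a poly(A) tail. The stem-loop binding protein SLBP carries these mRNAs through processing and translation, and they decay when DNA synthesis stops. Replacement histones come from single genes, most of them with introns and polyadenylated mRNAs, are made outside S phase too, and are the forms that postmitotic neurons deposit. Many replication-dependent genes encode the same protein from near-identical sequence.

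Promoter sequence was read from RefSeq (GRCm38.p6) from 250 bases before to 50 after each gene's start, and 28 members had an entry. Promoters of 6 genes are shown because the results turn on them: the 3 replication-dependent genes with the largest differences, H1f1, which varied between replicate numbers, an H2B gene, and H2az1, the replacement gene that was lower. Capitals mark matches on either strand to TATANA, which is one spelling of the TATA box, to CCAAT, which NF-Y is known to bind, to AAACACA, known as the H1 box, or to ATTTGCAT, known as the octamer of H2B promoters.
H4c12 (Hist1h4k, chr13:21750504-21750803, minus strand): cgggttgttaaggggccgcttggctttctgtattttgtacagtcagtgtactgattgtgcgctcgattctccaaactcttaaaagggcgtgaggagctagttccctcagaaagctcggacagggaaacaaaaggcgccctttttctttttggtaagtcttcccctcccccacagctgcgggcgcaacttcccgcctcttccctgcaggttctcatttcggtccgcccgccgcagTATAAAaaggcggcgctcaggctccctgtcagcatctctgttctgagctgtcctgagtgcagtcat
H3c15 (Hist2h3c2, chr3:96239078-96239377, minus strand): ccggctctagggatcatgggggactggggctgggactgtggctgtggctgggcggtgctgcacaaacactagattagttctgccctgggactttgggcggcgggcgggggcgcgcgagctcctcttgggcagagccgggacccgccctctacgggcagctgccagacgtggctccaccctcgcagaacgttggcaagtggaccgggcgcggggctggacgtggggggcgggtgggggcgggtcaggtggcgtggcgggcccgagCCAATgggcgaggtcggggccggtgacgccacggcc
H1f3 (Hist1h1d, chr13:23554782-23555081, plus strand): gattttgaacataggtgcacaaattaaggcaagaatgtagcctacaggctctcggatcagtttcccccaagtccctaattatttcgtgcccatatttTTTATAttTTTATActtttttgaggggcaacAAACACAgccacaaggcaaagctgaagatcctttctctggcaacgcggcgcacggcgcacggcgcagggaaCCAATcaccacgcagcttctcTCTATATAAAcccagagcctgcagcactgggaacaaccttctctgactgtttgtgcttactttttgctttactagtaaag
H1f1 (Hist1h1a, chr13:23763418-23763717, plus strand): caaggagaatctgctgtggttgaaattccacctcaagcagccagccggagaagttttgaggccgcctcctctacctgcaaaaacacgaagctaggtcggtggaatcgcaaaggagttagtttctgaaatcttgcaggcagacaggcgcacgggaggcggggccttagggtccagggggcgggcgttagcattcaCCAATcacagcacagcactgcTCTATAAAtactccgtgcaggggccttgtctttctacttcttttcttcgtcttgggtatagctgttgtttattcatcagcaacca
H2bc18 (Hist2h2bb, chr3:96269450-96269749, plus strand): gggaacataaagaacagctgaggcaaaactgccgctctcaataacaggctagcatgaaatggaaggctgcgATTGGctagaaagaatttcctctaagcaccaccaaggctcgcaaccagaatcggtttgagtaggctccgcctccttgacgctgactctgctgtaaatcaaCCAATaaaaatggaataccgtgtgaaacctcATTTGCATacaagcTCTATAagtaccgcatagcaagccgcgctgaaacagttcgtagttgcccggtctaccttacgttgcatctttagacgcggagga
H2az1 (H2afz, chr3:137864237-137864536, plus strand): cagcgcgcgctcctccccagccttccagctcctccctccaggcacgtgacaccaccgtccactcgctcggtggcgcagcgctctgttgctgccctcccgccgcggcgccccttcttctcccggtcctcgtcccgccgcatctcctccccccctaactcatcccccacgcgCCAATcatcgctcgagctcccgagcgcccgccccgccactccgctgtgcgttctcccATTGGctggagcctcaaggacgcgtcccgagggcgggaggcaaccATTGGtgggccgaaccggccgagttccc

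TATANA stood in 20 of 22 replication-dependent promoters and in 1 of 6 replacement promoters, against 24.7% of the 32851 promoter entries of all genes. CCAAT stood in 21 of 22 and in 4 of 6, against 37.4%. H4c12 had no CCAAT. H3c15 had no TATANA, and its only CCAAT lay at 14, past the start. The H1 box stood in 5 of 6 H1 promoters and 8 of 22 replication-dependent promoters, against 1 of 6 replacement promoters and 7.18% of all entries. In H1f3 it lay at -122 and CCAAT at -51 from the start. The octamer stood in 4 of 7 H2B promoters and in none of the 6 H1 promoters, with 9 of 22 replication-dependent promoters and 1 of 6 replacement promoters in all, against 1.74% of all entries. Matches of TATANA on both strands overlapped each other in H1f3 and H1f1, and matches of different motifs did not overlap in the promoters printed. A match is a description of these letters and not a site of binding.

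A gene's value on an array is the median polish of its kept probe sets, on the log2 scale of the deposited RMA values, and only probe sets whose 6-array mean reached the median of all probe sets, 5.73, were kept. This left 29 members with a value, from 99 kept probe sets. H2ac7, H2af-ps2 and H2bc1 had no kept probe set. Values of different genes come from different probes, so the groups are compared within a gene. Only the ranking of markers by mean signal and the signal bins set different genes side by side.

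Replication-dependent histone genes had mostly higher means in Cugbp1 shRNA cultures. Of the 23 measured, 20 had the higher mean there and 3 the lower, where 46.4% of all genes had the higher mean. The median difference was 0.24 on the log2 scale, where the median over all genes was -0.02. It was 0.39 over the fewer replication-dependent genes with at least 3 kept probe sets. Past the threshold, 2 were called higher, H3c15 and H1f3, and 0 lower, where 0.336% of all genes were called higher and 0.972% lower. The same-numbered arrays of the groups deviated together, and with the replicate number as a block 7 were called higher and 2 lower, against 4.23% higher and 7.65% lower of all genes. The groups did not overlap for 9 genes that were higher and 1 that was lower, against 9.64% and 12.9% of all genes. Leaving out any 1 of the 6 arrays left 0 histone genes called in either direction. Since the family was chosen on this contrast, nothing more is read from these counts.

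**Figure D1:**
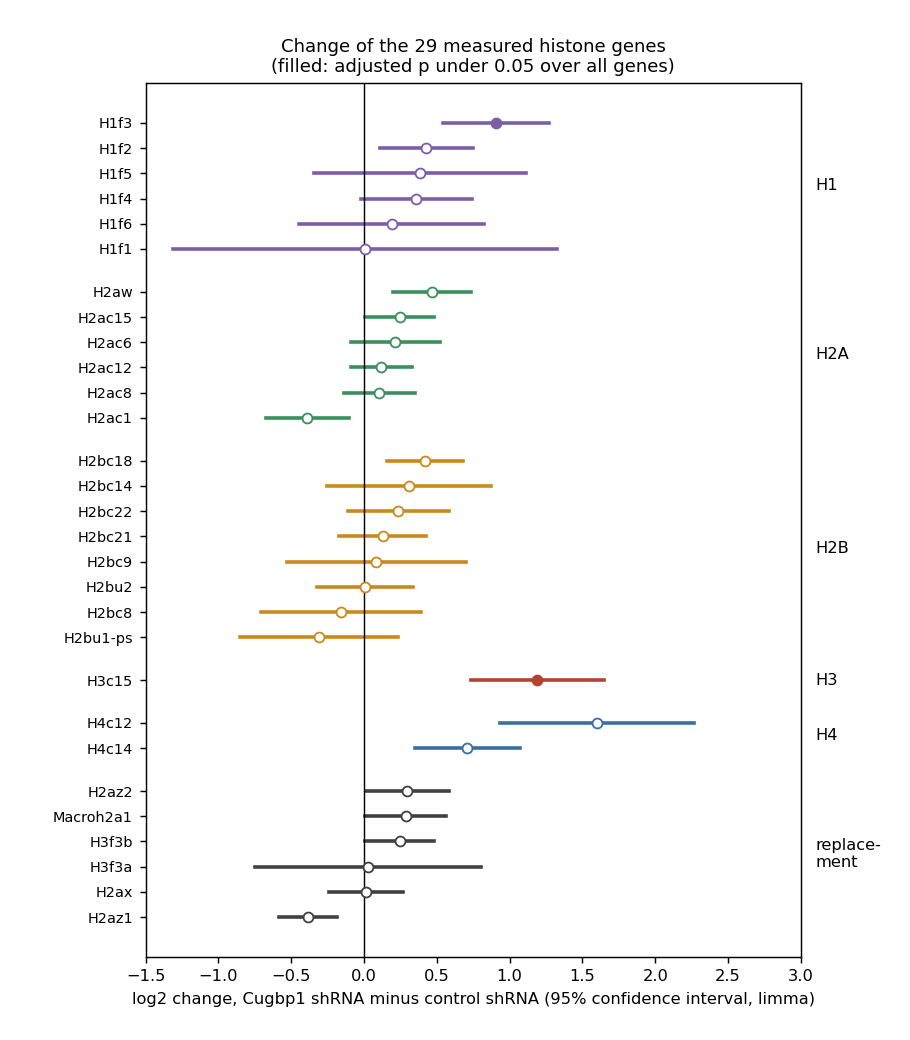
Log2 difference between Cugbp1 shRNA and control shRNA cultures (horizontal axis) for each of the 29 measured histone genes, grouped by protein, with 95% confidence intervals from limma (n = 3 each). Filled points, H1f3 and H3c15, passed an adjusted p of 0.05 over all genes. H4c12 lies farthest to the right at 1.60, H2ac1 and H2az1 lie farthest to the left, and the interval of H1f1 is the widest.

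Of H4 only 2 genes and of H3 only 1 were measured by probe sets of their own, and differences between the protein types were not tested. H4c12, a Hist1 gene of histone H4 on chromosome 13, measured 9.22, 8.64 and 8.13 on the Cugbp1 shRNA arrays, against 7.23, 6.74 and 7.21 on the control arrays. All 3 values lay above all 3 controls, although they were spread over more than 1 log2 unit. The difference was 1.60 ± 0.28 (SE), a 3.04-fold higher mean level, and it missed the threshold (limma, adjusted p = 0.0537). With the filter at the 75th percentile it was 0.95 and passed (adjusted p = 0.0207). With the replicate block too it passed (adjusted p = 0.0249), as it did among genes with at least 3 kept probe sets (adjusted p = 0.0292). It also passed with probe sets of mean 12 or more left out (adjusted p = 0.0368). It did not pass without the filter on dim probe sets, with quantile normalization or with median centring. Without any 1 array the difference ranged from 1.32 to 1.87, and adjusted p lay between 0.0757 and 0.221.

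H3c15, a Hist2 gene of histone H3 on chromosome 3, rose. It measured 7.38, 7.97 and 7.26 with Cugbp1 shRNA, against 6.19, 6.43 and 6.42 with control shRNA. The groups were apart by more than 0.8, and the difference was 1.19 ± 0.19 (SE; limma, adjusted p = 0.0479). This value rests on 1 probe set, and the call was lost with quantile normalization (adjusted p = 0.0517). It was also lost without any 1 array, where adjusted p lay between 0.0790 and 0.192.

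H4c14, the Hist2 gene of H4, measured 8.33, 8.78 and 8.39 in Cugbp1 shRNA cultures, against 7.98, 7.67 and 7.72 in control cultures. Here too the groups did not overlap, and the difference of 0.71 ± 0.15 (SE) missed the threshold (limma, adjusted p = 0.0782). Its 2 probe sets differed from each other: at one the difference was 1.47 and at the other -0.05.

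The linker histone genes came next. H1f3, which encodes the linker histone H1.3, rose. It measured 8.17, 8.49 and 8.23 with Cugbp1 shRNA, against 7.26, 7.67 and 7.24 with control shRNA. Each replicate number showed nearly the same gap, 0.91, 0.82 and 0.99. The difference was 0.91 ± 0.15 (SE), a 1.87-fold higher mean level, and passed narrowly (limma, adjusted p = 0.0496). The call was lost without the filter on dim probe sets, where the difference was 0.64 (adjusted p = 0.0549), with quantile normalization (0.0552), with median centring (0.0551), with probe set means (0.0511), and without any 1 array (0.0834 to 0.215).

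The other H1 genes had smaller differences, and all 6 H1 genes had a median of 0.37. H1f2, the gene of H1.2, measured 10.22, 10.40 and 10.19 in Cugbp1 shRNA cultures, against 10.06, 9.85 and 9.62 in control cultures. The groups did not overlap, and the difference of 0.43 missed the threshold (limma, adjusted p = 0.183). It was 0.82 and passed with the filter at the 75th percentile (adjusted p = 0.0194), and 0.49 with array weights (0.00902). The filter at the 75th percentile, 7.46, left out the only H1f2 probe set with the lower mean (-0.20, mean signal 7.17). H1f4 differed by 0.36 and H1f5 by 0.39, with overlapping groups. With the replicate block H1f4 (adjusted p = 0.0426) and H1f5 (0.0431) were called higher, H1f5 on 1 kept probe set. H1f6, the testis form, differed by 0.19.

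H1f1, with 1 kept probe set, was singled out after its values were seen, because its values followed the replicate number. It measured 8.46, 9.41 and 9.97 with Cugbp1 shRNA, against 8.28, 9.28 and 10.26 with control shRNA. Same-numbered arrays lay within 0.3 of each other, the means by replicate number spanned 1.75, and the difference between the groups was 0.01 (limma, adjusted p = 0.999).

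**Figure D2:**
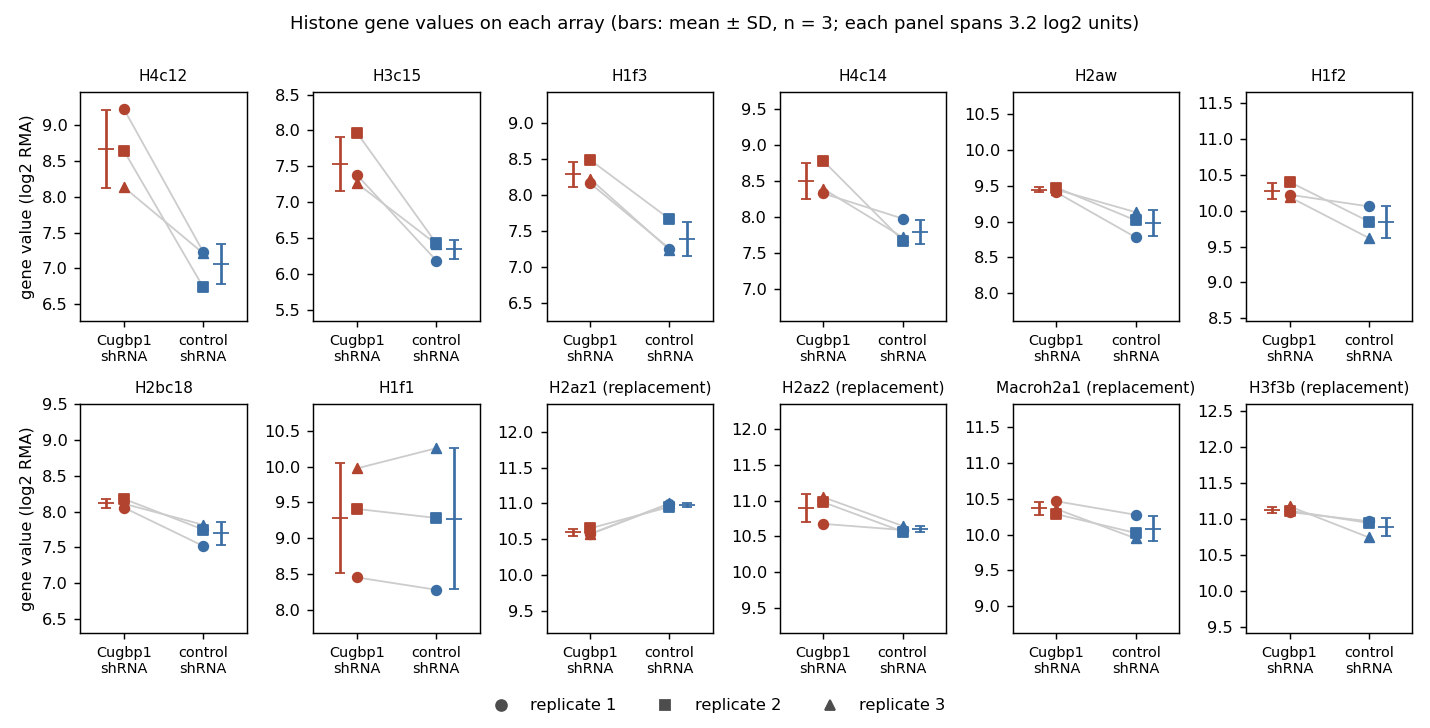
Gene values (log2 RMA, vertical axis) of 12 histone genes on each of the 6 arrays, Cugbp1 shRNA left and control shRNA right, with grey lines joining equal replicate numbers and bars for mean ± SD (n = 3). The groups overlap for H1f1 alone of the 12, the lines of H1f1 run level at 3 heights, and H2az1 is lower with Cugbp1 shRNA on all 3 arrays.

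Most measured core histone genes were of H2A and H2B. Of the 6 measured H2A genes 5 had the higher mean in Cugbp1 shRNA cultures (median 0.17), and of the 8 measured H2B genes 6 did (median 0.11). H2aw, the H2A gene of the Hist3 cluster, measured 9.41, 9.47 and 9.44 with Cugbp1 shRNA, against 8.78, 9.02 and 9.13 with control shRNA. Its groups did not overlap, and the difference of 0.47 missed the threshold (limma, adjusted p = 0.103). It passed with the replicate block (0.0339) and, as 0.67, with probe sets of mean 12 or more left out (adjusted p = 0.0432).

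H2bc18, a Hist2 gene of H2B with 11 kept probe sets, measured 8.06, 8.18 and 8.11 with Cugbp1 shRNA, against 7.52, 7.75 and 7.82 with control shRNA. These groups too did not overlap. The difference was 0.42 (limma, adjusted p = 0.119; the replicate block gave 0.0332). Here 8 of its 11 probe sets had the higher mean, from -0.03 to 1.48. H2ac8 and H2ac12, whose only kept probe sets lay near 14 on the log2 scale, differed by 0.11 and 0.12.

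The H2A gene H2ac1 and the H2B genes H2bc8 and H2bu1-ps had the lower mean in Cugbp1 shRNA cultures. H2ac1, an H2A gene known from testis, measured 6.91, 6.89 and 7.20 with Cugbp1 shRNA, against 7.30, 7.36 and 7.50 with control shRNA. The groups did not overlap, and the difference was -0.39 (limma, adjusted p = 0.179, and 0.0311 with the replicate block). The value of H2ac1 rests on 1 probe set. H2bu1-ps, annotated by RefSeq as a transcribed pseudogene, differed by -0.31 with overlapping groups (adjusted p = 0.635, and 0.0466 with the replicate block).

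Replacement histone genes had a median difference of 0.14, with 5 of 6 higher, 1 lower and 0 called (limma; 4 had an unadjusted p under 0.05, where 15.6% of all genes did). The groups did not overlap for 3 that were higher and 1 that was lower, where 9.64% and 12.9% of all genes did not. Their median was 0.29 with at least 3 kept probe sets per gene, which left out H2ax, H3f3a and H3f3b. With the filter at the 75th percentile it was 0.27 and the replication-dependent median 0.19, so the order of the classes turned. Whether the replication-dependent and replacement genes differ from each other was not tested. H2az1, the gene of the variant H2A.Z.1 found at promoters, measured 10.57, 10.65 and 10.58 in Cugbp1 shRNA cultures, against 10.99, 10.95 and 11.00 in control cultures. The arrays of each group lay within 0.1 of each other and the groups were apart. The difference was -0.38 ± 0.08 (SE), the lower mean stood at all 15 probe sets, and it missed the threshold in the fit without the block (limma, adjusted p = 0.0823). The replicate block gave a call for H2az1 (lower, adjusted p = 0.0300), and so did the fit of genes with at least 3 kept probe sets (adjusted p = 0.0487).

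H2az2, which encodes the near-identical variant H2A.Z.2, lay on the other side. It measured 10.68, 10.98 and 11.05 with Cugbp1 shRNA, against 10.59, 10.57 and 10.65 with control shRNA. The groups did not overlap, though only narrowly, and the difference of 0.30 missed the threshold (limma, adjusted p = 0.293). Macroh2a1, which encodes the large variant macroH2A1, differed by 0.29 (adjusted p = 0.304). H3f3b, 1 of the pair of genes that encode H3.3, differed by 0.24 at its 1 probe set (adjusted p = 0.298). For Macroh2a1 and H3f3b the groups did not overlap either.

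H2ax, whose protein is phosphorylated at DNA breaks, differed by 0.01 (95% confidence interval -0.24 to 0.27), which leaves a change of that size possible in either direction. H3f3a, the other H3.3 gene, differed by 0.03 (-0.75 to 0.81). Its 2 probe sets went opposite ways, at -0.32 and 0.37, the former with a mean of 5.85, near the filter. Its control arrays read 7.10, 7.30 and 6.00, so 1 control array lay apart from the others, and without control replicate 3 the difference was -0.37.

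Gene neighbours in RefSeq order did not all share the differences of the named genes. Near H4c12, H2ac15 differed by 0.24, H2bc14 by 0.31 and H1f5 by 0.39, with H4c11 not tested. Beside H3c15 stood H2bc21, at 0.13, and farther along H4c14, at 0.71. Around H1f3, H2ac8 differed by 0.11, H2bc9 by 0.08 and H2bc8 by -0.16. None of these neighbours was called, with adjusted p of 0.0782 for H4c14 and 0.303 or above for the others. By cluster, the median difference was 0.23 over 16 Hist1 genes, 0.56 over 4 Hist2 genes and 0.01 over 3 Hist3 genes.

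In H4c12, H1f2 and H1f4, named here after their values were seen, the probe sets of a gene differed from each other. At the 4 kept probe sets of H4c12 the differences were 2.16, 1.74, 1.50 and 0.16, the last at the only one with a mean above 12. One of the 3 H1f2 probe sets differed by 1.28, with 10.69, 10.68 and 10.70 in Cugbp1 shRNA cultures against 9.25, 9.26 and 9.71 in control cultures, while the others differed by 0.35 and -0.20. Among the 4 H1f4 probe sets the differences were 1.14, 0.41, 0.30 and 0.11, again smallest at the brightest. Tested singly over all 597778 kept probe sets, 0 passed in either direction with or without the replicate block (limma, smallest adjusted p = 0.417 without it).

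Signal bins were set after these values were seen. Of the 37 replication-dependent probe sets with a mean signal under 9, 21.6% were at least 1 log2 unit higher in Cugbp1 shRNA cultures, against 0.327% of all 131944 single-gene probe sets in that range. Between 9 and 12 it was 1 of 12, and at 12 or more 0 of 7, with median differences of 0.33, 0.26 and 0.12 from the dimmest bin to the brightest. Among all single-gene probe sets 0.159% and 0.00816% were so in the last 2 bins. None of the 43 kept replacement probe sets was at least 1 higher, but only 11 of them had a mean under 9. Another 29 lay between 9 and 12 and 3 at 12 or more. Some of the histone probe sets belong to the same gene, and the family was chosen on this contrast. Some of those at least 1 higher had a control mean under the filter, as at H4c12 and H2bc18. What part the signal range of the array has in the size of a difference was not tested.

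**Figure D3:**
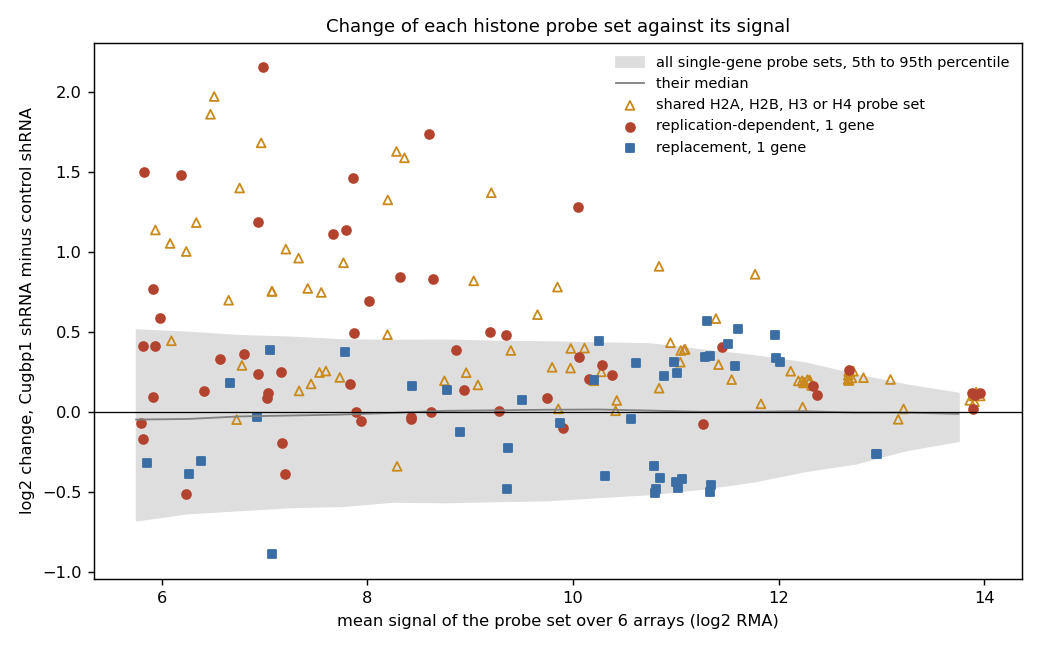
Log2 difference of each kept histone probe set (vertical axis) against its mean signal over the 6 arrays (horizontal axis, log2 RMA), over a grey band from the 5th to the 95th percentile of all single-gene probe sets. Replication-dependent and shared probe sets with differences of 1 or more have means under 9 in all but 2 cases, those above 12 gather between -0.05 and 0.26, and replacement probe sets stay under 0.6.

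Near-identical copies limit which gene a value belongs to. Another 132 histone probe sets were annotated to several genes and entered no gene value, and 36 further histone genes were listed on such probe sets alone. A probe set annotated to 1 gene may still bind RNA of its copies, which was not tested because probe sequences were not used here.

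The shared probe sets were read as they stand, as sums over copies. Of 84 kept ones for H2A, H2B, H3 or H4, 81 had the higher mean in Cugbp1 shRNA cultures, against 51.2% of all kept probe sets, with a median difference of 0.26. The groups did not overlap at 30, all higher, against 5.44% of all kept probe sets, and 13 were at least 1 higher, against 0.251%. Many of the 84 name the same group of copies, so they are not 84 separate results. Some were kept through their Cugbp1 shRNA values, with a control mean under the filter of 5.73. The family was chosen on this contrast, and nothing more is read from these counts. Medians were 0.39 over 29 H2B, 0.25 over 19 H3, 0.20 over 22 H4 and 0.19 over 14 H2A probe sets. The 14 kept probe sets shared by H3f3a and H3f3b had a median of 0.10, and 12 of them had the higher mean. At 4 of the 14 the groups did not overlap, all higher, beside the same shares of 51.2% and 5.44%.

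Among kept shared probe sets the largest difference, 1.97, stood at one of 8 Hist1 H2B genes, chosen here for its size. It read 7.10, 7.81 and 7.58 with Cugbp1 shRNA, against 6.05, 6.17 and 4.35 with control shRNA. All values with Cugbp1 shRNA lay above all controls, and 1 control array lay well below the others. Another H2B probe set, of 4 genes, read 7.54, 8.02 and 7.87 with Cugbp1 shRNA, against 6.01, 6.21 and 6.15 with control shRNA, a difference of 1.68 with no array set apart.

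Taking each gene around its own mean over the 6 arrays, the 23 replication-dependent genes had medians of 0.00, 0.24 and 0.20 on the Cugbp1 shRNA arrays, against -0.38, -0.08 and -0.09 on the control arrays. The groups were apart, and in both groups replicate 1 was lowest. The family was chosen on this contrast, so nothing more is read from that gap. Averages of the pan-neuronal and glutamatergic marker lists, given below, did not overlap between the groups either. The 6 replacement genes had medians of -0.05, 0.08 and 0.08 with Cugbp1 shRNA, against 0.07, 0.00 and -0.23 with control shRNA, which overlap.

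**Figure D4:**
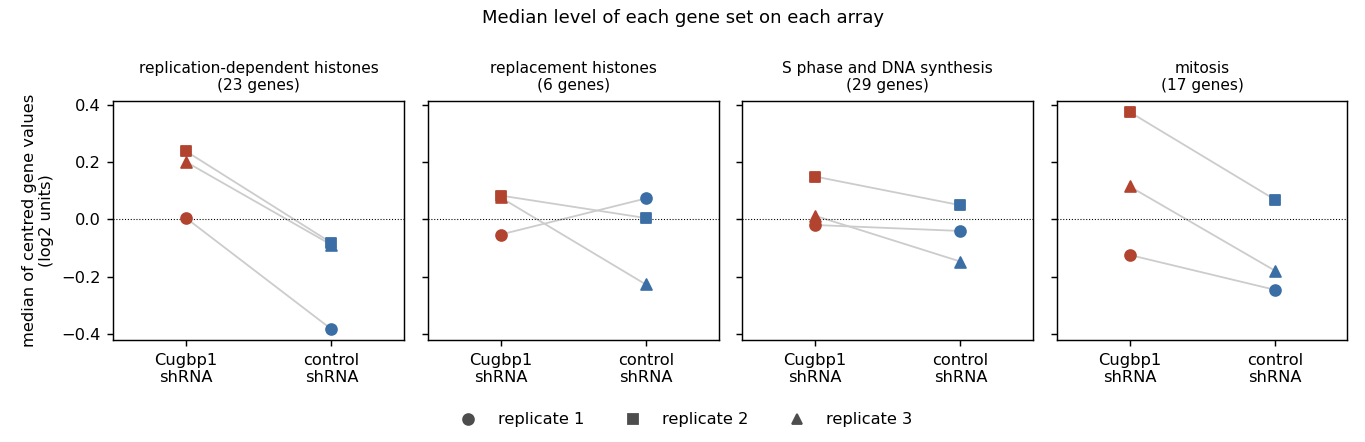
Median over the genes of a set of the values centred on each gene's mean (vertical axis, log2 units) on each array, Cugbp1 shRNA left and control shRNA right, with grey lines joining equal replicate numbers. Of the 4 sets shown, the groups are apart for replication-dependent histones, a family chosen on this contrast, and overlap for the others. Each of the 3 lines for mitosis genes is lower at control shRNA, and so is each of the 3 for S phase genes.

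Genes that act with histones were set beside them. Of 26 genes that make, process or degrade histone mRNA, 15 had the higher mean and 0 passed, with a median of 0.03. An unadjusted p under 0.05 stood at 3 (limma), where 15.6% of all genes had one, so the count was no more than over all genes. The replicate block called 4.23% of all genes higher and 7.65% lower, shares that also stand behind the block calls of the lists that follow. The U7 snRNP component Lsm11, which serves the cutting of histone pre-mRNA, differed by -0.43 (adjusted p = 0.129) and was called lower with the replicate block (0.0229). Its partner Lsm10 differed by -0.18. Hinfp, the activator of H4 promoters, differed by -0.23 (adjusted p = 0.288), and Upf1, the helicase of histone mRNA decay, by 0.25 (adjusted p = 0.308).

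Of 26 histone chaperones and their partners 14 had the higher mean and 0 passed (limma; 2 had an unadjusted p under 0.05), with a median of 0.03. The nucleoplasmin Npm3 differed by -0.52, the neuronal nucleosome assembly protein Nap1l5 by -0.36 and Cabin1, a partner of the H3.3 chaperone HIRA, by 0.29. With the replicate block Npm3 (adjusted p = 0.0259) and Nap1l5 (0.0357) were called lower and Cabin1 higher (0.0460). Atrx, a remodeller that places H3.3, differed by -0.26. Of 8 other variant histones 0 passed (limma; 1 had an unadjusted p under 0.05), and Cenpa, the H3 of centromeres, differed by 0.36 (adjusted p = 0.120), H1f10 by 0.18, H2aj by 0.18 and H1f7 by -0.26.

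Genes of dividing cells were read beside the histones. Of 17 mitosis genes 16 had the higher mean in Cugbp1 shRNA cultures, with a median of 0.24 and 0 called (limma; 3 had an unadjusted p under 0.05, where 15.6% of all genes did). With the replicate block, which called 4.23% of all genes higher, 4 were called higher, Ccnb2 (adjusted p = 0.0491), Cdk1 (0.0461), Cdc20 (0.0379) and Aurka (0.0498), the last 2 named after this was seen. The mitotic checkpoint kinase gene Bub1b differed by 0.43, Ccnb2, a cyclin, by 0.40, Cdk1, its kinase, by 0.41 and Birc5, of the chromosomal passenger complex, by 0.28. The list averaged 7.91 to 8.39 on the Cugbp1 shRNA arrays and 7.80 to 8.14 on the control arrays, which overlap.

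Of 29 S phase genes 20 had the higher mean, with a median of 0.10 and 0 called (limma; 4 had an unadjusted p under 0.05). The helicase gene Mcm7 differed by 0.31 and was called higher with the replicate block (adjusted p = 0.0466), and the flap endonuclease Fen1 differed by -0.46 and was called lower (0.0319). The clamp Pcna differed by 0.23 and Gins2, of the replicative helicase, by -0.28. The list averaged 8.06 to 8.21 on the Cugbp1 shRNA arrays and 7.95 to 8.18 on the control arrays. Its centred medians were -0.02, 0.15 and 0.01 on the Cugbp1 shRNA arrays, against -0.04, 0.05 and -0.15 on the control arrays. By replicate number the median gene difference was -0.02, 0.08 and 0.17. What part dividing cells have in the histone values was not tested, and more cells of a type and more RNA per cell cannot be told apart in these bulk samples.

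Markers of the cell types in such cultures were read the same way, with the fit without the block. Of 11 neural progenitor markers 7 had the higher mean and 1, Hopx, rose (0.72; limma, adjusted p = 0.0496). The call of Hopx was lost without the filter on dim probe sets, where the difference was 0.49 (adjusted p = 0.179), with probe set means (0.50, adjusted p = 0.158), with median centring (0.0568), with probe sets of mean 12 or more left out (0.0516), and without any 1 array (0.0831 to 0.224). Their list averaged 9.37 to 9.56 on the Cugbp1 shRNA arrays and 9.34 to 9.55 on the control arrays. Of 14 pan-neuronal markers 11 had the lower mean and Ina, an intermediate filament gene, fell (-0.60; limma, adjusted p = 0.0395, and 0.0674 to 0.214 without any 1 array), with averages of 11.81 to 11.85 with Cugbp1 shRNA and 11.88 to 11.98 with control shRNA. All 9 glutamatergic markers had the lower mean (limma, 0 called, 2 with an unadjusted p under 0.05), at averages of 10.63 to 10.68 with Cugbp1 shRNA and 10.81 to 10.88 with control shRNA.

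Of 12 astrocyte markers 8 had the lower mean, of 9 oligodendrocyte lineage markers 2, of 10 microglia markers 8, of 12 vascular and fibroblast markers 10 and of 7 motor neuron markers 7, with 0 called by limma in each of these lists. An unadjusted p under 0.05, found for 15.6% of all genes, stood at 3 astrocyte, 0 oligodendrocyte lineage, 0 microglia and 1 motor neuron markers. In the vascular and fibroblast list it stood at 3. These passed as lower with the replicate block, which called 7.65% of all genes lower: Pdgfrb (-0.80), Lum (-0.77, on 1 probe set) and Thbs1 (-0.72). That list averaged 7.29 to 7.49 on the Cugbp1 shRNA arrays and 7.42 to 7.82 on the control arrays. Averages were 9.59 to 9.84 with Cugbp1 shRNA and 9.82 to 9.86 with control shRNA for astrocytes, 9.69 to 9.96 and 9.61 to 10.01 for the oligodendrocyte lineage, and 6.71 to 6.94 and 6.81 to 6.98 for microglia. The replicate block also called Stx1a (0.88) and Acsbg1 (0.36) higher and Dcx (-0.45), Camk2a (-0.58), Slc5a7 (-0.43), Mlc1 (-0.53) and Ntsr2 (-0.87) lower, of the neuronal, glutamatergic, motor neuron and astrocyte lists. The part of these cell types in the histone values was not tested.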

How the data were processed

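The 6 exon arrays analysed were 3 with Cugbp1 shRNA and 3 with control shRNA. The values are log2 RMA values, 1 per probe set and array, deposited by the authors and made in Affymetrix Expression Console as an all-exon analysis, per the labels. mm9 is named per the submitters' processing notes. RMA sets the arrays to 1 distribution and so takes out any difference in their total signal. Array medians lay between 5.74 and 5.78, and with microarrays the number of arrays limits the precision.

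The platform annotation gave 1 gene to 317245 of 1195555 probe sets and several to 6323, and 871987 were unlisted. RefSeq's list of genes (GRCm38.p6) held 17991 of the 22274 symbols as current, 4220 were updated through synonyms and 63 kept. Probe sets with a mean of at least 5.73 were kept (597778), and a gene with at least 1 was summarised by median polish. limma 3.58.1 (lmFit and eBayes, R 4.3.3, two-sided) compared Cugbp1 shRNA with control over 19964 genes, with Benjamini-Hochberg adjustment over all of them and calls at 0.05. The same fit was run on single probe sets, and the gene code was tested on simulated data. The package data.table (version 1.17.8), pandas 2.3.3, numpy 2.4.6 and matplotlib 3.10.9 served for tables and plots.

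Titles number replicates 2 and 3, and the unnumbered array of a group counted as replicate 1. Across genes, arrays with equal numbers deviated together from their group means (r of 0.68, 0.37 and 0.64), so the numbers pair the samples, and a second fit took them as a block. Members and gene lists were chosen with earlier results of these data known. Named are the called members, the 8 replication-dependent members with the largest differences, the replacement members, up to 4 genes of each list with the smallest p, Celf1, Tardbp and neighbours of named genes; H1f1, H1f4, H1f5, H1f6, H2ac12, H2bu1-ps, Aurka, Cdc20 and the probe sets were added after their values were seen. Alternatives were at least 3 probe sets per gene, no filter and a stricter one, the block, quantile normalization, median centring, trend and robust variances, probe set means, array weights, an adjusted p under 0.10 and leaving out each array.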

Additional observations from a re-analysis of the deposited data

How the results depend on the processing

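The arrays are few, and the 2 histone calls lay just under the threshold. Of the values followed under 18 other settings, 369 kept direction and side of the threshold, 50 newly passed it and 14 no longer did, leaving aside the settings without 1 array. The replicate block ended no call: all 261 genes called without it were called in the same direction with it, and the members and list genes it added stand in the report. Over all genes the calls were 181 higher and 471 lower with at least 3 probe sets per gene, 161 and 387 with the filter at the 75th percentile, 845 and 1527 with the replicate block, 276 and 595 with trend and robust variances, 1669 and 2470 with array weights, 260 and 608 at an adjusted p under 0.10, and 0 and 0 with replicates 2 and 3 only, a setting added after seeing the data. Leaving out 1 array gave 0 higher and 0 to 1 lower.

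Histone genes called higher numbered 1 with at least 3 probe sets per gene, 1 without the filter, 3 with the filter at the 75th percentile, 7 with the block, 0 with quantile normalization, 1 with median centring, 4 with trend and robust variances, 10 with array weights, 4 at 0.10, 4 without probe sets of mean 12 or more, which was added after seeing the data, and 0 with 1 array left out or replicates 2 and 3 only. Those called lower numbered 1 with at least 3 probe sets, 3 with the block, 1 with trend and robust variances, 2 with array weights, 1 at 0.10 and 0 with 1 array left out.

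The median difference of replication-dependent genes was 0.39 with at least 3 probe sets, 0.16 without the filter, 0.19 at the 75th percentile, 0.22 with array weights, 0.31 without bright probe sets, 0.18 with replicates 2 and 3 only, and 0.11 to 0.35 with 1 array left out. That of replacement genes was 0.29 with at least 3 probe sets, 0.27 at the 75th percentile, above that of replication-dependent genes there, 0.086 with array weights, 0.27 with replicates 2 and 3 only, again above it, and 0.05 to 0.27 with 1 array left out, where it lay above it without control replicate 1. H2ax differed by -0.030 and H3f3a by -0.25 with array weights, and with 1 array left out they ranged from -0.077 to 0.066 and from -0.37 to 0.28. The medians with at least 3 probe sets are over fewer genes of both classes than in the main fit. The causes were not tested.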
